A study of Rattus norvegicus with 9 samples.

Results

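miR-378 was followed at the level of single read sequences in small RNA libraries from the free wall of the left ventricle of 3 male Sprague-Dawley rats, 8 months old (3 per layer, the same 3 animals), with no treatment or genetic change in any group. From each heart the outer layer (epicardium), the middle layer (mid-myocardium) and the inner layer (endocardium) were dissected about 1 mm from the surfaces and sequenced separately, which gave 3 libraries per layer and 9 in all. The hearts are numbered 6, 7 and 8, and the 3 layers of a heart come from 1 animal. Every sequence annotated to the rat entry mir-378 was taken, whichever way it matched the hairpin. This gave 936 of the 46358 annotated sequences, with 192498 reads.

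MicroRNAs (miRNAs) are cut from a hairpin precursor, whose arms can each leave a mature strand, and the seed, nucleotides (nts) 2 to 8, leads target recognition. Reads of 1 miRNA differ in where they start and end and in nts added after cutting, and these forms are called isomiRs. For a strand from the 3′ arm (3p), Dicer sets the 5′ end and Drosha the 3′ end. A start moved by 1 nt moves the seed as well. miR-378 is abundant in heart and skeletal muscle and is known for its part in energy metabolism. It lies within the gene of the transcriptional coactivator PGC-1β, Ppargc1b.

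In the RefSeq annotation of rat build GRCr8 the hairpin gene Mir378 occupies nts 57128922 to 57128986 of chromosome 18, within the span of Ppargc1b (57029264 to 57131466), and Mir378b is listed on chromosome 5. Both mature strands of Mir378 are shown because all reads below are described against them, with the seed in capitals.
rno-miR-378a-3p, chr18:57128925-57128945, minus strand: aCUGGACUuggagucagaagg
rno-miR-378a-5p, chr18:57128962-57128983, minus strand: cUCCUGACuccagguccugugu
They equal the mature and the mature* sequence of the deposited table. The 3p strand is the major arm, called miR-378, and the 5p strand the minor arm, called miR-378*.

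The sequences that carry most of the reads follow as sequenced, with T for U. Capitals mark nts beyond the mature 3′ end.
Mature plus C: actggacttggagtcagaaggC
Mature: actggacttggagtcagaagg
Mature less 1 nt: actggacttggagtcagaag
Mature plus A: actggacttggagtcagaaggA
Without nt 1, plus C: ctggacttggagtcagaaggC
Without nt 1, plus CT: ctggacttggagtcagaaggCT
Mature plus CT: actggacttggagtcagaaggCT
Mature plus T: actggacttggagtcagaaggT
Reads without a mismatch extend the mature 3′ end by C, C and T. A first C past the end therefore matches the precursor, while an A there, a T there or a T in second place does not.

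The 3p arm held 873 of the sequences and 191068 reads, or 99.3% of the reads of miR-378. The 5p arm held 62 sequences and 1429 reads, or 0.742%, and 1 sequence with 1 read fitted neither. Few forms carried most of the reads: 16 sequences with at least 1000 reads each held 89.6%, and 358 sequences were read once. In all 9 libraries 98 sequences were found, with 97.9% of the reads. The authors' annotation gave 67.5% of the reads no mismatch to the precursor, 27.5% 1 mismatch and 5.01% 2.

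Annotated reads per library ranged from 283991 to 1428025, and miR-378 took 2.18% to 3.55% of them, so that 1 read weighed most in the mid-myocardium of heart 6, the shallowest library. By marker miRNAs of cell types, 2 libraries stood apart from the others. The summed level of 5 cardiomyocyte miRNAs was 56308 RPMM, the reads scaled to a common total of annotated reads, in the epicardium of heart 8 and 63983 in the endocardium of heart 7, against 95947 to 150196 in the other 7 libraries. The smooth muscle pair miR-143 and miR-145 summed to 163999 and 152815 RPMM there, against 96013 to 131853. The 3 miRNAs listed for red cells summed to 176213 and 247176 RPMM, against 100428 to 160202. Endothelial miR-126 was at 4372 and 3448 RPMM, against 5295 to 8685. Its * strand, not on the list, did not follow. It was highest of all libraries in the epicardium of heart 8 (11919 RPMM) and at 7438 RPMM in the endocardium of heart 7. Each sum was carried almost wholly by 1 miRNA (miR-133a, miR-143 and miR-486). The paper cites earlier work that found miR-486 enriched in muscle, of the heart as well as the skeleton. The red cell sum can therefore not be read as a measure of red cells alone. Not all other members of the lists moved with the leading miRNA of their sum. Red cell miR-451, at 348.1 and 452.2 RPMM, was lowest in these 2 libraries, smooth muscle miR-145, at 1023 RPMM, was lowest in the epicardium of heart 8, and cardiomyocyte miR-208 was second highest there at 365.7 RPMM. All 16 listed miRNAs of 6 cell types were detected, so no layer lacked a marker. Fewer cells of a type and less RNA per cell cannot be told apart in tissue libraries.

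The level of miR-378 did not separate the layers. Grouped on the mature sequence, it measured 23009, 28896 and 24929 RPMM in the epicardium of hearts 6, 7 and 8. It measured 24879, 28096 and 25234 RPMM in the mid-myocardium, and 37626, 26204 and 24613 RPMM in the endocardium. The endocardium of heart 6 was the highest library, and all 3 layers overlapped. Means were 25611 ± 3002, 26070 ± 1764 and 29481 ± 7098 RPMM (SD, n = 3 each), and in their order no neighbours differed beyond their spread. Among 232 grouped miRNAs of the major arm miR-378 ranked between 7 and 13 in every library.

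**Figure D1:**
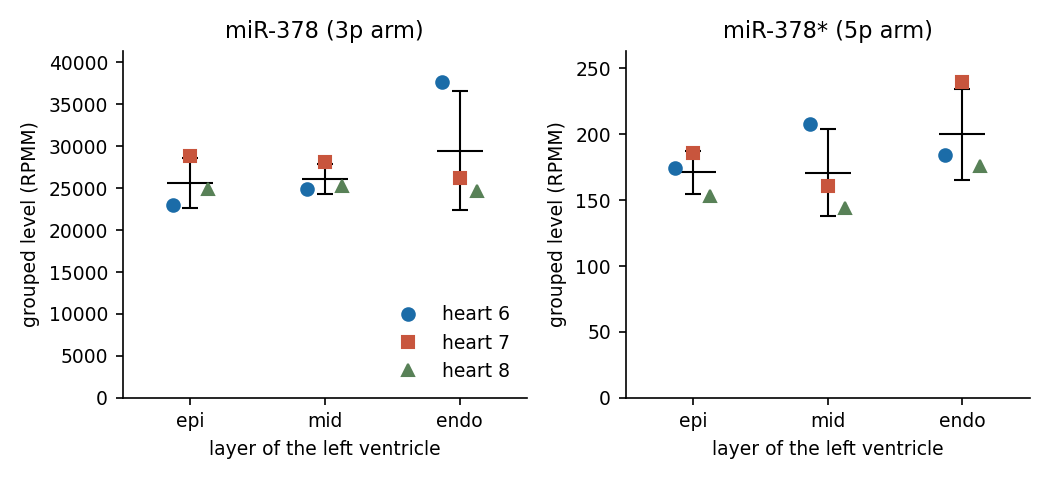
Grouped level of miR-378 (left) and miR-378* (right) in RPMM by layer, with 1 point per heart, and the mean and SD over 3 hearts as horizontal line and whiskers. The layers overlap for both arms, and the endocardium of heart 6 stands highest for miR-378 at 37626 RPMM.

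Endocardium was compared with epicardium, the contrast of interest across the wall, by limma on log2(RPMM + 1) with Benjamini-Hochberg adjustment over all grouped miRNAs. The difference of miR-378 was 0.18 (SE 0.30, adjusted p = 0.989) and that of miR-378* 0.21 (SE 0.28, adjusted p = 0.989). Of 298 grouped miRNAs tested, 0 passed (0%), 8 (2.68%) had an unadjusted p below 0.05, and edgeR and DESeq2 on recovered reads called 0 of 441. Without the endocardium of heart 6 the difference of miR-378 was -0.01 in the same fit (adjusted p = 0.993). Without the epicardium of heart 8 and the endocardium of heart 7 the difference was 0.24 for miR-378 and 0.00 for miR-378* (limma adjusted p = 0.996 for both). Mid-myocardium differed from epicardium by 0.03 for miR-378 (SE 0.24, limma adjusted p = 0.987) and by -0.01 for miR-378* (SE 0.26, adjusted p = 0.994). Endocardium differed from mid-myocardium by 0.15 for miR-378 (SE 0.26, limma adjusted p = 0.868) and by 0.23 for miR-378* (SE 0.27, adjusted p = 0.831). Of the 291 and 300 miRNAs tested there limma also called 0 (0%), with 16 (5.5%) and 13 (4.33%) at an unadjusted p below 0.05, edgeR called 0 in both, and DESeq2 called 1 of 435 (0.23%) and 0 of 438. These fits did not pair the layers of an animal, so their p-values rest on the spread between 3 libraries per layer. With the heart as block the limma adjusted p for endocardium against epicardium was 0.986 for both arms.

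A version of Baggerley's beta-binomial test, which the study names, was run as an alternative and called miR-378 in 2 of the 3 contrasts. Whether its weights are those of the authors' software was not checked, so its calls are not the study's own. In simulated data with 60 of 298 grouped miRNAs changed 4-fold it called 2 of the 60, where limma called 52. For endocardium against epicardium its adjusted p was 0.007 with a log2 difference of 0.17, 1 of 2 calls among the 298 miRNAs (0.671%). For endocardium against mid-myocardium the adjusted p was 0.00555 with 0.12, 1 of 19 calls among 300 (6.33%). In both contrasts its estimate of the spread of miR-378 between libraries fell to its lower limit, the counting error, in both layers. This was common: 204 of 298 and 238 of 300 miRNAs were at the limit in either layer. With equal weights for the 3 libraries of a layer the adjusted p was 0.974 and 0.898, and 0 miRNAs were called in either contrast (6 and 8 at an unadjusted p below 0.05).

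The minor arm was about as even. miR-378* measured 174.5, 185.6 and 153.5 RPMM in the epicardium of hearts 6, 7 and 8, 207.8, 160.6 and 144.4 in the mid-myocardium, and 184.1, 239.5 and 176.3 in the endocardium. The endocardium of heart 7 was highest and the mid-myocardium of heart 8 lowest, and the layers overlapped. Ranks of miR-378* lay between 13 and 18 of 72 grouped * strands. Per 100 reads of the 3p arm there were 0.749 ± 0.151 reads of the 5p arm (SD, n = 9), from 0.526 in the endocardium of heart 6 to 1.00 in the endocardium of heart 7. Only 60 to 348 reads of this arm were counted per library, which limits any share within it.

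Over the 9 libraries miR-378 varied little. The SD of its log2(RPMM + 1) was 0.21, rank 11 from the lowest among 149 rat miRNAs with at least 10 reads in every library, whose median was 0.34. This rank takes no account of abundance, and counting error adds to the SD of scarce miRNAs. Of other abundant ones, miR-27b had 0.19 and miR-30d 0.22, and miR-191 and miR-181a each had 0.30. The profiles most like it, by the root mean square difference of centred log2 levels over 9 libraries, were those of miR-28 (0.17), miR-92a (0.17) and miR-671 (0.18), against a median of 0.35 over 148 miRNAs.

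Among single sequences the mature form of the database came second. Mature plus C held 29.4% ± 2.37 of the 3p reads (SD, n = 9 libraries from 3 hearts, as for all shares below) and ranked first in every library. The exact mature sequence held 21.9% ± 1.21 and ranked second in every library, from 19.5% in the mid-myocardium of heart 8 (95% Wilson interval 18.99 to 19.97) to 23.2% in the epicardium of heart 6 (22.6 to 23.8). Such intervals cover counting error only. Mature less 1 nt held 8.57% ± 0.930 and mature plus A 7.35% ± 0.954, and these took ranks 3 and 4 in either order. The leading forms without nt 1 followed with 4.37% ± 0.506 for plus C and 3.65% ± 0.984 for plus CT. Mature plus CT held 2.88% ± 0.521 and mature plus T 2.69% ± 0.288.

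At the 5′ end, 87.2% ± 1.72 of the 3p reads started at nt 1 and 12.2% ± 1.67 at nt 2. Starts 1 nt upstream and at nt 3 held 0.190% ± 0.0624 and 0.157% ± 0.0328. Reads without nt 1 carry a different seed, shown in capitals in the leading sequence of each start.
Start at nt 1: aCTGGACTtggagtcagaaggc
Start at nt 2: cTGGACTTggagtcagaaggc
Of 724 rat mature miRNAs in RefSeq, 1 had the first seed, rno-miR-378a-3p itself, and 0 had the second. They held no mature strand of Mir378b, so its seed could not be compared.

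The share without nt 1 was 10.4%, 11.1% and 14.8% in the epicardium of hearts 6, 7 and 8. It was 11.02%, 12.9% and 11.1% in the mid-myocardium and 11.4%, 14.9% and 12.5% in the endocardium. The highest values were those of the epicardium of heart 8 (Wilson 14.3 to 15.3) and the endocardium of heart 7 (14.6 to 15.3), the pair low in miR-133a and miR-126 and high in miR-143 and miR-486. The other 7 libraries lay between 10.4% and 12.9%. What these levels had to do with this share was not tested. By layer the means were 12.1% ± 2.35, 11.7% ± 1.06 and 13.0% ± 1.80 (SD, n = 3), and the layers overlapped.

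At the 3′ end, 24.8% ± 1.15 of the 3p reads ended at the mature end, 47.5% ± 2.19 ended 1 nt past it, 14.3% ± 1.21 ended 2 nts past it and 9.89% ± 1.13 ended 1 nt before it. In all, 63.9% ± 1.53 were longer than the mature form and 11.3% ± 1.30 shorter, and the commonest length was 22 nts with 48.0% ± 1.77. Of the 3p reads 70.7% ± 1.49 had no nts added that the precursor does not hold. A tail of 1 or 2 A, counted after these values were first seen, was on 15.9% ± 1.84 of the reads. A tail of 1 to 3 T was on 11.3% ± 1.19, whereas a single G was on 0.208% ± 0.0924. The annotation allowed up to 2 mismatches, and tails of 3 A were absent from the rat entry. The mature sequence plus AAA was left unannotated (445 reads), so A and T tails were not cut off alike. Where an added nt equals the next nt of the precursor it was counted as precursor sequence.

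Among reads starting at nt 1, the share with A varied with the end it stood on and the share with T varied little over the 3 commonest ends. Where the precursor part stopped at the mature end, 27.0% ± 2.39 carried A and 8.12% ± 1.02 carried T. Where it went 1 nt further, to the C, the shares were 7.31% ± 1.47 for A and 8.403% ± 1.48 for T, and where it stopped 1 nt earlier they were 7.31% ± 0.632 and 7.95% ± 0.735. For A, the lowest library at the mature end (23.4%) was above the highest at the C (9.397%). The highest share of A, 50.4% ± 3.54, was on the 2666 reads whose precursor part stopped 2 nts before the mature end. On the 543 reads that went 2 nts past it the share was 17.1% ± 5.57. A sequence that stopped 2 nts before the mature end and went on with AAA (36 reads) was filed under the human mir-378d entry. Whether A at that end was added or came from another copy of the hairpin was not tested.

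None of the 6 shares and ratios tested over the layers passed the exact permutation test of 3 layers of 3 libraries, whose smallest p is 0.00357. These were the exact mature sequence, reads without nt 1, reads longer and shorter at the 3′ end, reads with a mismatch, and * reads per 100. The unadjusted exact p was 0.711, 0.668, 0.282, 0.407, 0.618 and 0.929, and the adjusted p lay between 0.853 and 0.929. When layers were permuted within hearts (heart as block) the exact p lay between 0.389 and 0.889. Differences between layers were not detectable against the spread of 3 hearts.

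**Figure D2:**
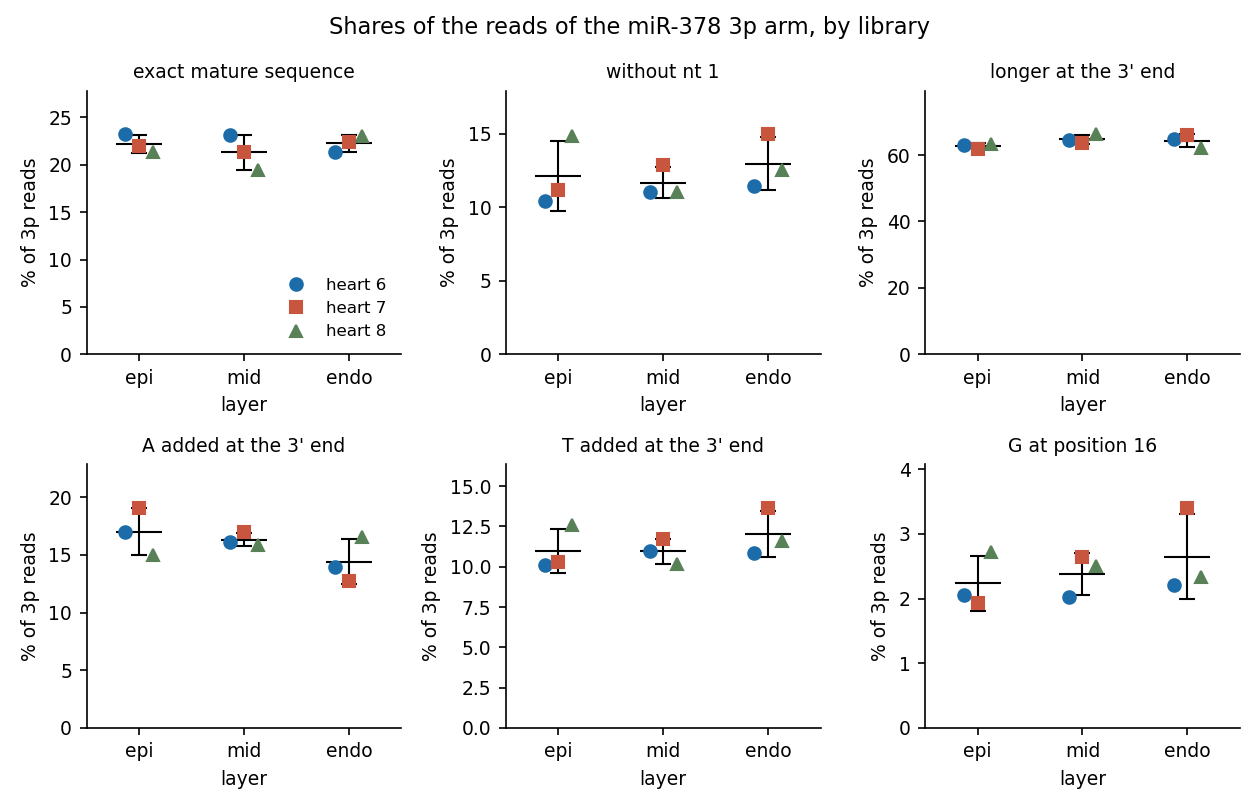
Share of the 3p reads of miR-378 in % (G at position 16: % of reads covering it) by layer, with 1 point per heart and the mean and SD as horizontal line and whiskers. The layers overlap in every panel, and the epicardium of heart 8 and the endocardium of heart 7 are highest without nt 1 (14.8% and 14.9%), with T (12.6% and 13.6%) and with G at position 16 (2.73% and 3.403%).

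The same pair of libraries was highest in T tails, with 12.6% in the epicardium of heart 8 and 13.6% in the endocardium of heart 7, against 10.1% to 11.7% in the other 7. A tails were lowest in the endocardium of heart 7 at 12.8% and highest in the epicardium of heart 7 at 19.1%. The mean share of A tails was 17.03% ± 2.03 in epicardium, 16.3% ± 0.586 in mid-myocardium and 14.4% ± 1.92 in endocardium (SD, n = 3). The endocardium of heart 8, at 16.5%, overlapped the other layers.

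The start and the 3′ end of a read went together. Of the reads starting at nt 1, 59.5% ± 1.77 were longer than the mature form at the 3′ end, from 57.5% to 62.7% over the 9 libraries. Of the reads without nt 1 it was 95.1% ± 0.506, from 94.6% to 95.9%, and the ranges did not overlap. The difference of 35.6 percentage points (SD 1.75) had the same sign in 9 of 9 libraries and in each heart, with p = 0.00391 in the exact two-sided sign-flip permutation test, the smallest that 9 libraries allow (adjusted p = 0.00586 over 9 measures). With the 3 hearts as units, which pairs the layers of an animal, the smallest p possible is 0.25, and it was reached.

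On average reads starting at nt 1 ended 0.560 ± 0.0324 nts past the mature end and reads without nt 1 1.60 ± 0.0359 nts past it. The difference was 1.04 nts (SD 0.0542), in 9 of 9 libraries, with the same exact permutation p of 0.00391. Mean length was 21.56 nts with nt 1 and 21.60 nts without it, a difference of 0.0359 nts (SD 0.0542), with an exact permutation p of 0.0859. Reads of both starts thus had about the same length while their 3′ ends lay about 1 nt apart. The precursor-matched part reached past the mature end in 43.9% ± 2.69 of the reads with nt 1 and in 89.4% ± 1.01 of those without it.

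**Figure D3:**
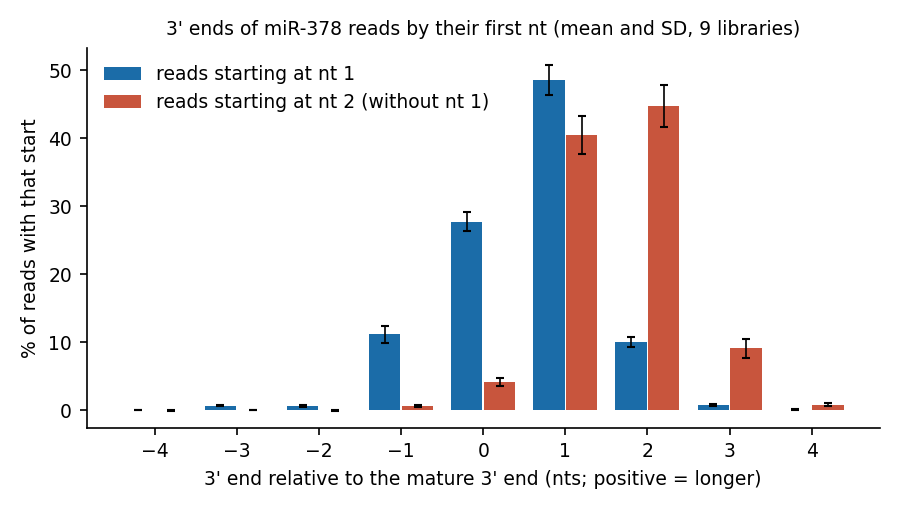
Share of reads in % (mean and SD of 9 libraries) by the position of the 3′ end relative to the mature end in nts, for reads starting at nt 1 and at nt 2. Reads starting at nt 1 peak 1 nt past the mature end, and those without nt 1 hold 44.7% at 2 nts past it, against 10.04% of the reads with nt 1.

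Over all ends together, T tails differed between the starts and A tails did not pass the test. A T tail was on 8.09% ± 0.546 of the reads with nt 1 and on 33.8% ± 3.73 of those without it. The difference was 25.7 percentage points, in 9 of 9 libraries (exact permutation p = 0.00391). An A tail was on 16.05% ± 1.87 and 15.3% ± 2.22, and the difference of -0.714 (SD 1.78) did not pass (exact permutation p = 0.254, lower without nt 1 in 7 of 9 libraries). These totals combine different ends, and at a given end both tails could differ. Where the precursor part stopped at the C past the mature end, T followed in 8.403% ± 1.48 of the reads with nt 1 and in 39.3% ± 4.63 of those without it, and A in 7.31% ± 1.47 and 11.2% ± 2.20. Where it stopped at the mature end, A followed in 27.0% ± 2.39 and 38.4% ± 3.23, and T in 8.12% ± 1.02 and 14.2% ± 4.14. Where it stopped 1 nt earlier, on only 212 reads without nt 1, A followed in 7.31% ± 0.632 and 22.7% ± 10.8, and T in 7.95% ± 0.735 and 7.16% ± 5.399. The values by end were not tested. A sequence without nt 1 that went on with CTAT past the mature end (59 reads) was filed under the cattle mir-378-2 entry. Whether T after the C was added or came from another copy of the hairpin was not tested.

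Among the 27 entries with at least 1000 reads in every library, miR-378 ranked 4 in the share without nt 1. miR-133a (52.3% ± 3.13), miR-126 (20.3% ± 1.26) and miR-10a (19.0% ± 1.52) had more, and miR-30e came next with 3.92% ± 0.308. All others of the 27 had less than that. In 14 entries at least 20 reads without nt 1 in every library gave a mean 3′ end. There the shift of miR-378, 1.04 nts, was the largest, from 0.943 to 1.12 over the libraries. It was followed by miR-10a with 0.775 ± 0.0316 and miR-126 with 0.679 ± 0.124, while that of miR-133a was 0.187 ± 0.0273. This ranking was made after the values of miR-378 were seen, and it is given as a description.

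**Figure D4:**
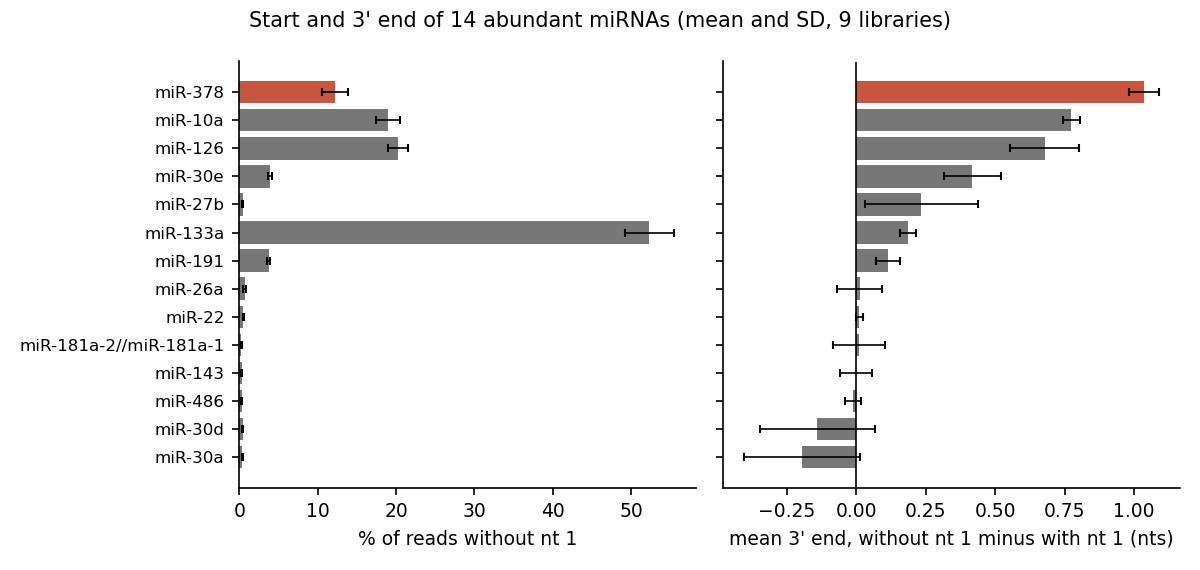
Share of reads without nt 1 in % (left) and mean 3′ end of reads without nt 1 minus that of reads with nt 1 in nts (right), as mean and SD of 9 libraries, for the 14 entries with enough reads. miR-378, in colour, is behind miR-133a, miR-126 and miR-10a on the left and first on the right with 1.04 nts.

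Within the sequence 1 position stood out. The form that shows it, with the changed nt in capitals, held 1.29% ± 0.267 of the 3p reads and ranked between 9 and 12 in the libraries.
A16G, plus C: actggacttggagtcGgaaggc
Positions are counted from the mature 5′ end, with the reference nt first. Over all 3p reads covering it, A16G was found in 2.42% ± 0.461. It was 2.06%, 1.93% and 2.73% in the epicardium of hearts 6, 7 and 8, 2.02%, 2.64% and 2.5001% in the mid-myocardium, and 2.21%, 3.403% and 2.34% in the endocardium. The endocardium of heart 7 was highest (Wilson 3.22 to 3.60) and the epicardium of heart 7 lowest (1.75 to 2.12), and the epicardium of heart 8 came second. The other 47 substitutions at positions 2 to 17 had a median of 0.0125%, and the highest, A6G, reached 0.182% ± 0.0418.

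The mature sequence has 4 adenosines at positions 1 to 17, and their A-to-G changes were the 4 highest of the 51 substitutions there: A16G, A1G with 1.11% ± 0.0898, A6G, and A12G with 0.148% ± 0.0267. The next, C15T, was at 0.0617%. Over 130 adenosines after nt 1 in the 27 abundant entries, A16G had rank 1, A6G rank 2 and A12G rank 4, with A4G of miR-27b at rank 3 and 0.154%. This measure was chosen after the reads were seen and has no test. Which genomic copy a changed read came from, and sequencing error at these positions, were not tested.

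**Figure D5:**
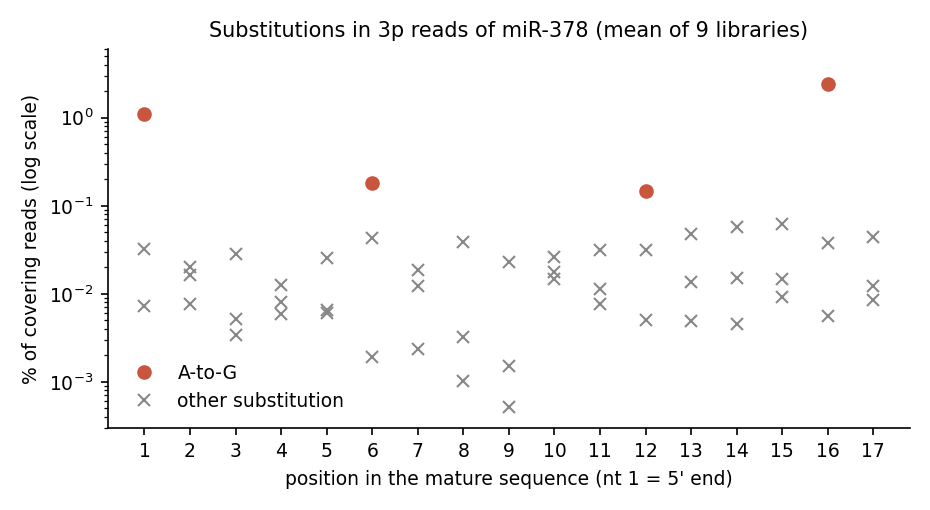
Each point is 1 of 51 possible substitutions at positions 1 to 17 of the mature sequence, as the mean share of covering 3p reads in % over 9 libraries on a log axis. The 4 A-to-G changes are the highest, with position 16 at 2.42% and position 1 at 1.11%.

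G at position 16 was not spread evenly over the isomiRs. It was on 2.63% ± 0.541 of the reads starting at nt 1, from 2.06% to 3.78%, and on 0.964% ± 0.164 of those without nt 1, from 0.778% to 1.24%. By 3′ end it was on 1.08% ± 0.315 of the reads at the mature end and on 3.30% ± 0.662 of those 1 nt past it, and the ranges of these classes over libraries did not overlap (at most 1.56%, at least 2.71%). Reads ending before the mature end, at 2.39% ± 0.516, and reads ending 2 nts past it, at 2.03% ± 0.346, lay between them.

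Single sequences were also compared between layers, in limma fits over all annotated sequences whose mean in 1 of the layers reached 100 RPMM or more. For endocardium against epicardium 21 sequences of miR-378 were among the 562 tested. None passed, and neither did any other sequence (0%, with 8, or 1.42%, at an unadjusted p below 0.05, and 0 by edgeR and DESeq2). On the log2 scale 15 of the 21 were higher in endocardium, where 50.7% of all tested were, with a median of 0.19 against 0.00 over all. Mature plus C differed by 0.28 (SE 0.32, limma adjusted p = 0.998) and the mature sequence by 0.19 (SE 0.28, adjusted p = 0.998). Without the endocardium of heart 6 the count higher was 11 of 20, with a median of 0.01.

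For mid-myocardium against epicardium 20 of 559 were of miR-378, and limma called 0 of all (0%, with 15, or 2.68%, at an unadjusted p below 0.05). Of the 20, 10 were higher in mid-myocardium, where 50.4% of all were, with a median of -0.01. This count fell to 6 of 20 without the epicardium of heart 6, with a median of -0.078, and was 14 of 20 without the epicardium of heart 7, with a median of 0.069. For endocardium against mid-myocardium 21 of 562 were of miR-378 and limma again called 0 (0%, with 17, or 3.02%, at an unadjusted p below 0.05). Here 14 of 21 were higher in endocardium, where 48.2% of all were, with a median of 0.12. Without the endocardium of heart 6 it was 8 of 20 with a median of -0.13, without the mid-myocardium of heart 6 it was 10 of 21 with a median of -0.033, and without the endocardium of heart 7 it was 22 of 22 with a median of 0.19. In endocardium against epicardium and in mid-myocardium against epicardium the libraries of the layers overlapped for every tested sequence of miR-378, while 3.2% and 3.04% of all tested lay wholly above and 3.56% and 3.4% wholly below. For endocardium against mid-myocardium 2 of the 21 lay wholly above, where 8.9% of all did, and 0 wholly below, where 6.58% of all did. Baggerley's test called 1 of the 21 in endocardium against epicardium, mature plus C (0.178% of all called), and 1 in endocardium against mid-myocardium, the mature sequence (4.45% of all), and 0 with equal weights. The 2 wholly above follow.
Without nt 1: ctggacttggagtcagaagg
Without nt 1, plus CC: ctggacttggagtcagaaggCC
The first measured 120.9, 123.2 and 119.7 RPMM in the endocardium and 109.2, 114.2 and 112.1 in the mid-myocardium of hearts 6, 7 and 8. The second measured 151.8, 191.2 and 128.9 against 119.7, 116.8 and 80.7, with a log2 difference of 0.57 (SE 0.28, limma adjusted p = 0.73). In the epicardium of heart 8 the second was at 149.2 RPMM, so the outer layer overlapped the inner.

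Reads of the minor arm kept closer to its reference form. Of the 5p reads 70.0% ± 6.46 were the mature* sequence, and 92.9% ± 2.76 started at its nt 1. Starts at nt 2 made up 6.06% ± 2.01 of these reads, 80 of 1429 in all, spread over 13 sequences. At the 3′ end 82.9% ± 5.37 stopped at the reference end, against 24.8% in the 3p arm. Next in order were the form less 1 nt at its 3′ end with 4.18% ± 2.12, the form with its last nt read as A with 3.92% ± 3.29, and the form without its first nt with 3.92% ± 1.96.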

How the data were processed

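Small RNA from 3 layers of 3 hearts was made into TruSeq libraries. The authors trimmed and annotated the reads against miRBase v18 with CLC Genomics Workbench v4.0, allowing up to 2 mismatches and 3 nts added or removed at either end. The deposited read-level table holds RPM values per sequence (RPMM, scaled to the annotated reads of a library). They were whole multiples of 1 read (100.0% of values within 0.001 reads), so reads were recovered. The deposited grouped table holds a signal that the authors scaled per library on 2 totals, 1 for * strands and 1 for the others, so that levels of both arms are not on the same scale. The deposited table of unannotated sequences holds read counts, which the authors listed from 10 reads upwards.

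The members, lists and tests were chosen with earlier results of these data known. Sequences were named where they were the mature or mature* form, held at least 1% of their arm, led a start or 3′ end holding at least 0.1%, or were called in a test of all sequences. Added tails, A16G, the ranking among 27 miRNAs, the non-overlapping sequences and the leaving out of 2 libraries were chosen after values were seen. Starts were found by alignment to the mature strands (tested on simulated data).

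Layers were compared with limma 3.58.1 in R 4.3.3 on log2(RPMM + 1), with at least 10 reads in a library compared. edgeR 4.0.16 and DESeq2 1.42.0 on recovered reads and Baggerley's test were alternatives. Shares were tested with exact permutations (1680 arrangements of layers, 512 sign patterns). Wilson intervals are at 95%. Reads from near-identical copies of the hairpin were not separated. The hearts pair the layers, since the labels name 3 layers per heart: deviations from layer means over 304 grouped miRNAs had a median correlation of 0.151 within hearts (9 pairs, -0.185 to 0.453) and -0.175 between hearts (18 pairs).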

Additional observations from a re-analysis of the deposited data

Results flagged for a closer look

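Reads of miR-378 also lay outside the rat entry. Among 13317 unannotated sequences with at least 10 reads, 5 held the mature sequence with or without its nt 1, with 707 reads in all, 15 to 111 per library. The commonest, with the nts past the mature end in capitals, had 445 reads and was found in every library.
Unannotated, plus AAA: actggacttggagtcagaaggAAA
The others ended in AAA without nt 1 (89 reads), in CAAA with and without nt 1 (61 and 57) and in CAAT (55). Mir-378 entries of other species held 834 reads in 228 sequences, equal to 0.433% of the reads of the rat entry. Neither set entered the shares given above. Groups of 3 libraries are too small for the outlier test used elsewhere.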

How the results depend on the processing

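Of 260 alternative values computed for 26 results, 242 were counted as the same. For levels and differences between starts this meant the same direction and side of the threshold, and for layer tests the same side. For mean shares it meant within 1 SD of the main value, and for counts of called sequences an equal count. Baggerley's test gave log2 differences of 0.17 and 0.12 for miR-378 in endocardium against epicardium and against mid-myocardium, past its threshold, and edgeR gave -0.030 for mid-myocardium against epicardium. In all settings other than Baggerley's test the adjusted p of the levels lay between 0.731 and 0.999. Baggerley's test gave an adjusted p of 0.217 for miR-378 in mid-myocardium against epicardium. Leaving out 1 library at a time gave log2 differences of miR-378 from -0.0057 to 0.30 (endocardium against epicardium), -0.036 to 0.27 (endocardium against mid-myocardium) and -0.044 to 0.12 (mid-myocardium against epicardium), and of miR-378* from -0.16 to 0.10 in the last. The negative values for endocardium came without the endocardium of heart 6. Among single sequences, 1 passed Baggerley's test in endocardium against epicardium and 1 in endocardium against mid-myocardium. Without a filter limma called 1 in the latter, a T9C form with 15 reads in all (adjusted p = 0.0497). It was 1 of 7 calls among 37127 sequences. This form had 1, 4 and 5 reads in the mid-myocardium of hearts 6, 7 and 8 and 0 in each endocardium. With only sequences of at least 10 reads in a library, the share with a mismatch was 31.2% and the * reads per 100 were 0.571, since rare sequences drop out. The heart as replicate block changed no call between layers (15 of 17 such settings were counted as the same). The differences of 35.6 percentage points and 1.04 nts between starts, paired over 3 hearts, had p = 0.25 in the exact permutation test, the smallest possible. Layer tests of shares without 1 heart cannot go below 0.0667, so they could only be counted as the same. No sequence of miR-378 was also filed under another name, so leaving such out changed nothing. Depth limits the 5p arm most, at 60 to 348 reads per library.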
